A study of Mus musculus with 5 samples.

Results

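The Tex (testis expressed) and Spata (spermatogenesis associated) genes were examined for Pcgf6 at their promoters in CCE cells, an established line of mouse embryonic stem cells (ESCs). The members were all protein-coding genes of the mm9 annotation whose symbol begins with Tex or Spata and a digit, except Tex12 and Spata22, which the rule left out. This gave 36 gene entries and 35 symbols (18 Tex and 17 Spata) among 22359 protein-coding promoters, since Tex9 has 2 entries. CCE cells of less than 15 passages were grown with LIF and fetal bovine serum, carried no label of any genetic change or knockdown, and were fixed with disuccinimidyl glutarate and paraformaldehyde. Chromatin was pulled down with an antibody against Pcgf6 from Santa Cruz (2 replicates) or from Abcam (2 replicates), and 1 library of the same kind of chromatin without pull-down (input) gave the background. No library with an unspecific antibody or from cells without Pcgf6 was analysed here. RNA was not measured in these libraries, so neither the ESC state nor the expression of any member could be checked against markers.

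Pcgf6 is the subunit that defines one of the variant forms of Polycomb repressive complex 1, PRC1.6. This complex also holds the DNA-binding proteins Mga with Max, which bind the E-box CACGTG, and E2f6 with its partner Dp1, which bind sequences of the E2F type such as GGCGGGA. In ESCs it is known for keeping genes of meiosis and of the germ line silent. The symbols Tex and Spata were given for transcription in the testis and do not mark a family by descent: some of these genes act in meiosis or in the germ line, some in the spermatid or sperm, and others in nearly every cell. The members were therefore described by role, with 9 meiotic and germ cell members, 10 spermatid and sperm members, 10 broadly expressed members and 6 members to which no role was assigned.

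Promoters on which the comparison turns are shown first. For Tex11 and Tex19.1 the fragments pulled down with Pcgf6 lay close to the transcription start site (TSS), while Tex13 is given as a germ cell gene at which few were found. Each line holds the 250 bases upstream of the TSS (mm9, NCBIM37), written 5′ to 3′ on the strand of the gene, with letters of the E2F-type sequence GGCGGGA or TCCCGCC in capitals. The regions are chr11:121007207-121007456 on the plus strand for Tex19.1, chrX:98255007-98255256 on the minus strand for Tex11 and chrX:137347973-137348222 on the minus strand for Tex13.
Tex19.1: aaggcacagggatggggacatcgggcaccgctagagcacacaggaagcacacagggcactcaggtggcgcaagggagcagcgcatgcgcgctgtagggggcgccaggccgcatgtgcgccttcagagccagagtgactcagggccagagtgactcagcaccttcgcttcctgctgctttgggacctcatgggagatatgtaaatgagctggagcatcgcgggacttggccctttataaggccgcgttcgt
Tex11: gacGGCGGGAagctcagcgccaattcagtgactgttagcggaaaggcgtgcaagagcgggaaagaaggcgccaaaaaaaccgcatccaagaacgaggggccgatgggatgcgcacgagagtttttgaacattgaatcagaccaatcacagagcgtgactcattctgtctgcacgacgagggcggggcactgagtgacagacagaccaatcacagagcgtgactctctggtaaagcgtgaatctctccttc
Tex13: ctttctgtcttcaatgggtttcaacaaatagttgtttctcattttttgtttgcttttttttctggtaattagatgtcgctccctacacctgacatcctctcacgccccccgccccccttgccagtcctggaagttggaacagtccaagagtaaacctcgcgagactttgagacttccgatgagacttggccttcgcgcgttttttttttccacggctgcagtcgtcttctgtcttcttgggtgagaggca

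The E2F-type sequence in Tex11 begins 247 bases before its TSS. Neither it nor the E-box CACGTG was present in these windows of Tex19.1 and Tex13. In the 300 bases from 250 before to 50 after the TSS, on both strands, the E-box stood in 3 of the 35 members (8.57%) and in 7.70% of all promoters. An E2F-type sequence stood in 5 members (14.3%: Tex11, Tex14, Tex264, Spata5 and Spata7) and in 14.3% of all promoters. In these 300 bases holders of either sequence were thus about as frequent among the members as among all promoters. Within 2 kb of the TSS the E-box stood in 18 members (51.4%) and in 42.3% of all promoters. An E2F-type sequence stood there in 18 members (51.4%) and in 39.8% of all promoters. The difference was not tested, and a match of letters is a description of the sequence only.

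The files held 22801166 fragments of 300 bp for the input, 2289606 and 2299488 for the Santa Cruz replicates, and 2761104 and 2849850 for the Abcam replicates. The replicates of each antibody proved to be largely the same fragments, with 87.8% of the Santa Cruz replicate 1 and 88.0% of the Abcam replicate 1 found again in replicate 2 at a fixed shift. Over 10 kb windows of the genome the replicates differed by less than the sampling noise (chi-square per degree of freedom 0.111 with Santa Cruz and 0.123 with Abcam). They were counted as 1 sample per antibody (2568898 fragments with Santa Cruz, 3168178 with Abcam, against 22299749 in the input with 1 fragment per position), so there is no replicate error. All intervals are 95% Clopper-Pearson intervals, compare the fragments of 2 libraries and cover counting error only. A ratio is the number of ChIP fragments centred within 2 kb of the TSS over that of the input, each divided by its library total, and a promoter was called when the one-sided exact binomial test against the input, adjusted over 22359 promoters, was under 0.05.

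None of the 35 members was called with either antibody. Over all promoters 0.649% were called with Santa Cruz (145), 1.10% with Abcam (246) and 0.483% with both (108), and both comparisons share the 1 input library. Because the members were chosen with such values known, and because Tex12 and Spata22 had been set aside, nothing is read from the count of 0. At an unadjusted p under 0.05, 4 members lay above the input with Santa Cruz (11.4%; 5.06% of all promoters) and 2 with Abcam (5.71%; 6.32% of all promoters). The former were Tex15, Tex21, Tex11 and Tex16, and the latter Tex14 and Tex19.2. Of these, Tex16 held only 1 input fragment. Depth limited what could be called: at the input depth of Tex15, 16 Santa Cruz fragments (a ratio of 3.31) or 18 Abcam fragments (3.02) would have been needed. When all fragments were taken as deposited, which counts most of them once per replicate and makes p too small, 1 member (Tex15) was called with Santa Cruz (2.86%; 1.71% of all promoters) and 0 with Abcam (2.78% of all promoters).

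Taken as a whole the members kept by the rule had values near those of all promoters. Their summed ratio was 0.907 with Santa Cruz (interval 0.788 to 1.04; 228 fragments against 2183 of the input) and 0.971 with Abcam (0.857 to 1.10; 301 fragments), and that of all promoters was 0.940 and 0.990. The median member had a ratio of 0.886 with Santa Cruz and 1.01 with Abcam, where the median over all promoters was 0.898 and 0.943. Both intervals of the members include the value of all promoters. The rule had left out Tex12 and Spata22, which were called with both antibodies. This closeness is therefore in part set by the rule, and nothing is read from it. A ratio over 1 was found for 16 members with Santa Cruz (45.7%; 39.7% of all promoters) and for 18 with Abcam (51.4%; 43.6% of all promoters). A ratio of 2 or more was found for 5 members with Santa Cruz (14.3%; 6.99% of all promoters), namely Tex11, Tex15, Tex16, Tex21 and Tex28, and for none with Abcam (6.71% of all promoters). Tex16 rests on 2 Santa Cruz fragments against 1 of the input and Tex28 on 3 against 10, so both are too shallow to place.

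The summed ratios differed between the role groups, and the plot gives the ratios by gene. The 9 meiotic and germ cell members had a summed ratio of 1.30 with Santa Cruz (0.979 to 1.70) and 1.33 with Abcam (1.03 to 1.69). The 10 spermatid and sperm members stood at 1.01 (0.771 to 1.31) and 0.906 (0.700 to 1.16), and the 6 members without an assigned role at 1.14 and 1.25. The 10 broadly expressed members were lowest, at a Santa Cruz ratio of 0.616 (0.474 to 0.788) and an Abcam ratio of 0.785 (0.637 to 0.960). The intervals of the meiotic and of the broadly expressed group did not overlap with either antibody. The roles were assigned with earlier results of these data known, so these values are a description with no test.

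**Figure D1:**
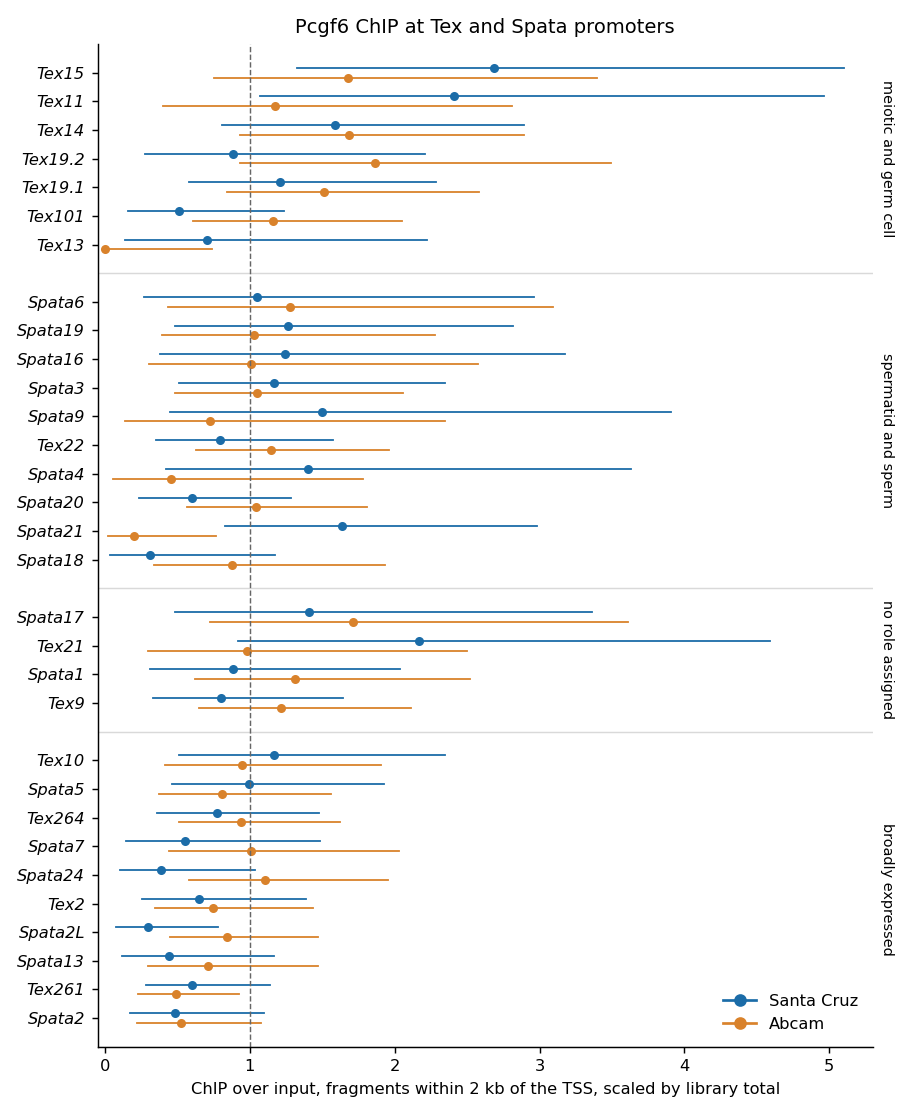
Ratio of ChIP to input fragments within 2 kb of the TSS (horizontal axis, linear, 1 marked by the dashed line) for the 31 members with 20 or more input fragments, grouped by role and ordered within each by the ratio over both antibodies; points are the Santa Cruz and Abcam ratios and bars their 95% counting intervals. Tex15 and Tex11 reach 2.69 and 2.41 with Santa Cruz, and most broadly expressed members lie to the left of 1.

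Tex15 had the highest ratio over both antibodies among the members with 20 or more input fragments. Its product acts in meiotic recombination and in the silencing of transposons by piRNAs. The gene lies on chromosome 8 (34627210 to 34696054, plus strand), and its promoter held 13 Santa Cruz, 10 Abcam and 42 input fragments. The ratio was 2.69 with Santa Cruz (1.32 to 5.10) and 1.68 with Abcam (0.750 to 3.39). File by file, the depth over the window relative to the input was 2.85 and 3.07 in the Santa Cruz replicates and 1.97 and 1.52 in the Abcam replicates. All 4 files were above the input, but the 2 files of each antibody hold largely the same fragments. Santa Cruz was the higher, from 13 fragments against 10 (unadjusted two-sided exact binomial p between the antibodies = 0.297). Tex15 was described in full, as were Tex14, Tex19.2, Tex21, Tex16, Spata17 and Spata21 below, after its values were seen.

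Tex11, an X-linked gene needed for chromosome synapsis and crossing over in male meiosis, came next among the germ cell genes. It held 10 Santa Cruz, 6 Abcam and 36 input fragments at its TSS on chromosome X (98255006, minus strand). These correspond to a ratio of 2.41 with Santa Cruz (1.07 to 4.96) and of 1.17 with Abcam (0.404 to 2.81). The depth ratios were 2.64 and 2.36 in the Santa Cruz files and 1.34 and 1.08 in the Abcam files. Tex11 was not called with Santa Cruz, since 15 fragments would have been needed, and its Abcam interval spans 1.

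Tex14, whose product keeps open the bridges between dividing germ cells, gave like ratios with each antibody. There were 13 Santa Cruz, 17 Abcam and 71 input fragments, giving 1.59 (0.807 to 2.90) and 1.69 (0.930 to 2.89). Its depth ratios ran from 1.34 and 1.74 with Santa Cruz to 1.67 and 1.72 with Abcam. The TSS of Tex14 (chromosome 11, 87218567, plus strand) lies 111 bp from that of Rad51c, a recombination gene on the other strand, and fragments of 300 bp cannot be assigned to one of the pair.

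Tex19.1 and Tex19.2 are paralogs on chromosome 11, transcribed away from each other from TSSs 27466 bp apart. Tex19.1 is known to be active in germ cells, placenta and ESCs and to limit retrotransposons. Its promoter held 11 Santa Cruz, 17 Abcam and 79 input fragments, with ratios of 1.21 (0.580 to 2.28) and 1.51 (0.841 to 2.58). The depth ratios of Tex19.1 were 1.22 and 1.09 with Santa Cruz and 1.54 and 1.59 with Abcam. At Tex19.2 there were 5, 13 and 49 fragments, so that the Abcam ratio, 1.87 (0.929 to 3.50), was the highest Abcam value of any member, and the Santa Cruz ratio was 0.886 (0.275 to 2.21). Every interval of the pair includes 1.

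The other 4 germ cell members gave little signal. Tex101, a surface protein of germ cells and sperm, had ratios of 0.511 and 1.16 from 85 input fragments. Tex13, an X-linked germ cell gene, held 3 Santa Cruz and 0 Abcam fragments against 37 of the input. This is a ratio of 0.704 with Santa Cruz (0.139 to 2.22), while 0 fragments with Abcam give an interval from 0 to 0.738 (3 fragments would be a ratio of 0.571). Its depth ratios were 0.679 and 0.677 in the Santa Cruz files and 0 in both Abcam files. Tex13a, its relative on chromosome X, held 0 Santa Cruz and 1 Abcam fragments against 14 of the input, and the 0 gives an interval from 0 to 2.62 (3 fragments would be a ratio of 1.86). Its depth ratio was 0 in both Santa Cruz files and 0.582 and 0.693 in the Abcam files. Tex16 held 2 Santa Cruz, 0 Abcam and 1 input fragments, with only 7.50% of its window covered by the input, so no ratio is given. X-linked promoters were shallow in general, with a median of 24 input fragments against 69 over all promoters.

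Summed over the meiotic and germ cell group, the Santa Cruz ratio was highest directly upstream of the TSS. The Abcam ratio was above 1 on both sides of the TSS. In the 500 bp before it the 9 members held 23 Santa Cruz and 22 Abcam fragments against 67 of the input, which are ratios of 2.98 (1.77 to 4.85) and 2.31 (1.36 to 3.79). Over all promoters the same 500 bp gave 0.880 and 0.996. In the next 500 bp downstream the ratios of the group were 1.54 (0.731 to 2.95) and 1.82 (0.978 to 3.19), and from 500 to 1000 bp downstream they were 0.761 and 0.988. A second bin with a high Abcam ratio, 3.02 (1.40 to 6.13) from 12 fragments, lay 2.5 to 3 kb downstream, where Santa Cruz gave 1.55. The bins were chosen for description after the values were seen.

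**Figure D2:**
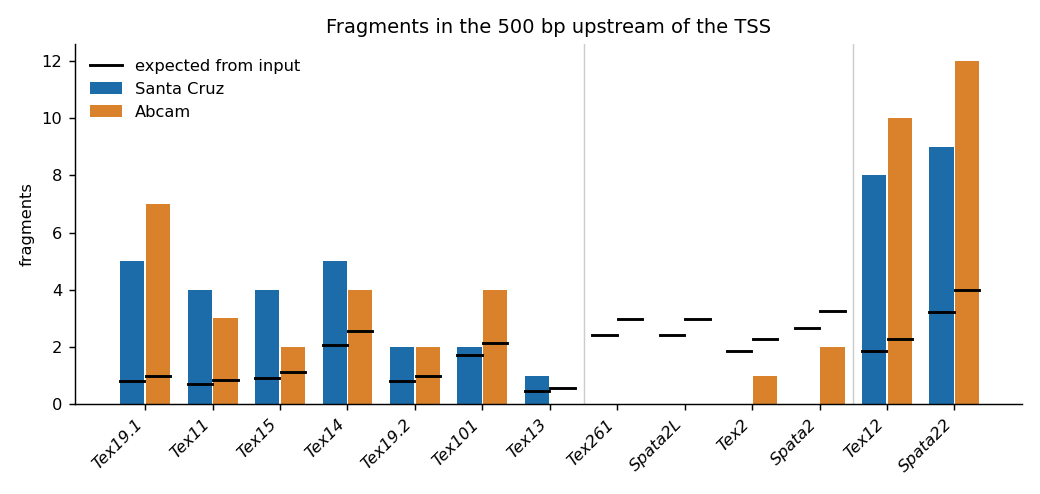
Fragments (vertical axis, counts) in the 500 bp upstream of the TSS with Santa Cruz and Abcam; black lines mark the number expected from the input at each library's depth. From left to right stand 7 germ cell members, 4 broadly expressed members and the 2 genes left out by the rule; Tex19.1 held 5 and 7 fragments, and Tex261 and Spata2L held 0 with both antibodies. The genes shown were chosen after their values were seen.

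Tex19.1 contributed most to this upstream signal. It held 5 Santa Cruz and 7 Abcam fragments in these 500 bp against 7 of the input, a ratio of 6.20 (1.55 to 22.7) with Santa Cruz and of 7.04 (2.11 to 23.5) with Abcam. Tex11 followed with 4 and 3 fragments against 6 (5.79 and 3.52), Tex15 with 4 and 2 against 8 (4.34 and 1.76), and Tex14 with 5 and 4 against 18 (2.41 and 1.56). Without Tex19.1 the group of the remaining 8 stood at a Santa Cruz ratio of 2.60 (1.45 to 4.47) and an Abcam ratio of 1.76 (0.928 to 3.14). The 5 members other than Tex11, Tex14, Tex15 and Tex19.1 together gave 1.55 and 1.51, with intervals that include 1.

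A window of 0.5 kb on each side, added after these positions were seen, followed the same members. From 6 Santa Cruz, 9 Abcam and 15 input fragments, Tex19.1 then reached 3.47 (1.10 to 9.47) and 4.22 (1.63 to 10.3). Tex15 reached 4.34 (1.61 to 10.7) and 2.64 (0.846 to 7.10) from 8, 6 and 16 fragments. No member was called in this window either, where 0.523% of all promoters were called with Santa Cruz and 1.07% with Abcam. These fragments are few, so the position is given with the width of its intervals.

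**Figure D3:**
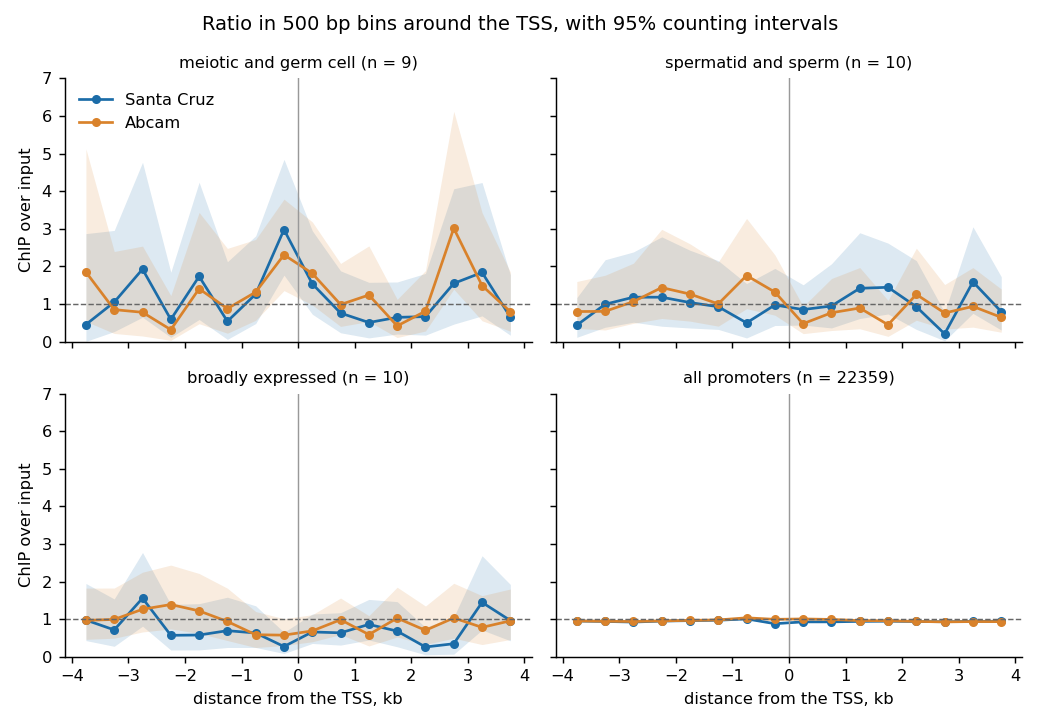
Ratio of ChIP to input (vertical axis) in 500 bp bins by distance from the TSS (horizontal axis, kb; upstream to the left) for 3 groups of members and for all promoters; lines join the ratios and shading gives the 95% counting intervals. The meiotic and germ cell members reach 2.98 and 2.31 in the bin before the TSS, where the broadly expressed members fall to 0.273 and 0.575.

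Among the spermatid and sperm members no ratio stood above 1 beyond its interval. Spata16, which is needed to form the acrosome, had ratios of 1.24 and 1.01, and Spata6, which is needed for the neck of the sperm, had 1.05 and 1.28. Spata19, a protein of sperm mitochondria, had 1.27 and 1.03. Spata18, which acts in mitochondrial quality control, had 0.310 with Santa Cruz (0.0366 to 1.17) and 0.880 with Abcam. The rest of the group (Spata3, Spata4, Spata9, Spata20, Spata21 and Tex22) had Santa Cruz ratios of 0.602 to 1.64 and Abcam ratios of 0.204 to 1.15.

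Spata21 had the smallest unadjusted p between the antibodies, a comparison that does not use the input, and it was picked for this after the values of all 35 members were seen. It held 13 Santa Cruz, 2 Abcam and 69 input fragments, so its Santa Cruz ratio was 1.64 (0.829 to 2.98) and its Abcam ratio 0.204 (0.0242 to 0.765). The depth ratios of Spata21 were 1.53 and 1.66 in the Santa Cruz files, and 0.213 and 0.200 in the Abcam files. Abcam stood at 0.125 of Santa Cruz (0.0137 to 0.551; two-sided exact binomial p = 0.0012, Benjamini-Hochberg adjusted p over 22359 promoters = 1.0). This was the only member with an unadjusted p under 0.05 (2.86%; 3.60% of all promoters), and no member differed between antibodies after adjustment, where 0.00894% of all promoters did.

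Summed as a group, the broadly expressed members lay below the input. Spata2, an adaptor of the linear ubiquitin machinery, held 6 Santa Cruz, 8 Abcam and 107 input fragments, with ratios of 0.487 (0.175 to 1.10) and 0.526 (0.222 to 1.08). Its depth ratios were 0.540 and 0.448 with Santa Cruz and 0.522 and 0.506 with Abcam, all well under 1. Its TSS lies 242 bp from that of Rnf114 on the other strand. Tex261, a membrane protein of the early secretory pathway, had 0.603 and 0.489 (0.229 to 0.925) from 144 input fragments, the deepest input of any member. Spata2L had 0.297 (0.0795 to 0.780) and 0.842. Tex10, a nuclear protein active in ESCs, had 1.17 and 0.945, and was the only member of the group above 1 with Santa Cruz. Abcam values above 1 were found for Spata7 (1.01) and Spata24 (1.11), and the remaining Tex2, Tex264, Spata5 and Spata13 had 0.646, 0.775, 0.998 and 0.440 with Santa Cruz.

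In the 500 bp upstream of the TSS the broadly expressed group held 5 Santa Cruz and 13 Abcam fragments against 159 of the input, which are ratios of 0.273 (0.0874 to 0.650) and 0.575 (0.300 to 1.01). Tex261 and Spata2L held 0 fragments with both antibodies there, each against 21 of the input. These promoters also had the deepest input, with a median of 91.5 fragments within 2 kb of the TSS against 42 for the germ cell group and 69 over all promoters. Over the 31 members with 20 or more input fragments, the input fragments and the ratio over both antibodies had a Pearson r of -0.50 and a Spearman rho of -0.55. This is a description, since the input is also the denominator of the ratio. The part of the input depth in the difference between roles was not tested.

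Of the 6 members with no role assigned, Tex21 held 9 Santa Cruz, 5 Abcam and 36 input fragments (2.17 with Santa Cruz, 0.919 to 4.59; 0.978 with Abcam, 0.299 to 2.50). Spata17 held 6, 9 and 37 fragments, with ratios of 1.41 (0.486 to 3.37) and 1.71 (0.727 to 3.61), and its TSS lies 62 bp from that of Gpatch2. Spata1 and Tex9 had 0.883 and 0.798 with Santa Cruz and 1.31 and 1.21 with Abcam. Tex28 held 3 Santa Cruz and 1 Abcam fragments against 10 of the input, which gives 2.60 (0.461 to 10.1) and 0.704 (0.0162 to 4.95). Tex24 held 0 Santa Cruz and 2 Abcam fragments against 14. Tex28 and Tex24 are thus too shallow to place.

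Members were also compared by base composition. All promoters were divided into 3 equal classes by the ratio of observed to expected CpG within 2 kb of the TSS. The 9 members of the class lowest in CpG were Spata3, Spata9, Spata19, Spata21, Tex13a, Tex16, Tex21, Tex24 and Tex28. They had a summed ratio of 1.45 with Santa Cruz (1.04 to 1.97) and 0.758 with Abcam (0.505 to 1.10). Santa Cruz was the higher at Spata9 (5 fragments against 3 with Abcam), Spata21 (13 against 2) and Tex21 (9 against 5). Of these only Spata21 had an unadjusted p under 0.05 between the antibodies by the two-sided exact binomial test. The antibodies gave close ratios at Spata3 (1.17 and 1.05) and Spata19 (1.27 and 1.03). Tex13a, Tex16, Tex24 and Tex28 held 1 to 14 input fragments and are too shallow to give a direction. The 16 members of the middle class had 0.731 (0.587 to 0.901) and 1.01 (0.849 to 1.19), and the 10 members of the class richest in CpG had 0.966 and 0.998. Over all promoters the summed ratios of the 3 classes were 0.933, 0.907 and 0.974 with Santa Cruz and 0.934, 0.960 and 1.04 with Abcam. The 5 X-linked members (Tex11, Tex13, Tex13a, Tex16 and Tex28), 3 of which belong to the CpG-poor class as well, stood at 1.59 (0.907 to 2.65) and 0.575 (0.241 to 1.18). All X-linked promoters gave 1.02 and 1.04. No test was made of these group differences. Over 10 kb windows of the genome the antibodies differed by about the sampling noise (chi-square per degree of freedom 1.01, from replicate 1 of each).

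Other TSSs of the members were measured too, where the window of 2 kb on each side did not overlap that of the main one. The nearest was that of Spata1, 4638 bp away. At 13 such starts of 8 genes the Santa Cruz ratio was at most 1.55 and the Abcam ratio at most 1.51, and the only start at 0 was that of Tex16, with 5 input fragments. Some were above their main start, such as those of Spata17 with Santa Cruz (1.55 against 1.41) and of Spata13 with Abcam (1.30 against 0.713), with intervals that include 1. The downstream start of Tex15 had 1.24 and 1.21, and those of Tex14 had 0.694 to 1.16 and 0.864 to 1.41.

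Genes of related function gave a scale for these values. Tex12, of the central element of the synaptonemal complex, held 20 Santa Cruz, 29 Abcam and 41 input fragments (4.23, 2.35 to 7.40; and 4.98, 2.98 to 8.21). Spata22, which acts in meiotic recombination together with Meiob, held 24, 37 and 71 fragments (2.93, 1.77 to 4.72; and 3.67, 2.40 to 5.53). Both were called with both antibodies. In a list of 18 meiotic chromosome genes, which includes Tex12 and Spata22, the summed ratio was 2.54 with Santa Cruz and 2.35 with Abcam, and 9 and 8 genes were called. In 16 genes of the piRNA pathway and of Tudor proteins it was 2.09 and 2.35, and 4 and 7 genes were called. The median gene of this list had 1.46 with Santa Cruz and 1.79 with Abcam, over ranges of 0.496 to 9.49 and 0.402 to 10.6. In the meiotic list the median gene had 2.76 and 2.38. These lists were chosen with earlier results of these data known. The 29 genes of the Spag, Tssk, Odf and Catsper families, named for sperm structure and motility, gave 0.771 (0.665 to 0.890) and 0.833 (0.732 to 0.944), and none was called. Over all promoters 0.649% were called with Santa Cruz and 1.10% with Abcam, so nothing is read from a count of 0 in 29 genes. Since the rule took Tex12 and Spata22 from the members and the meiotic list holds them, the gap between the germ cell members and that list is in part set by the rule, and no placement is read from it.

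**Figure D4:**
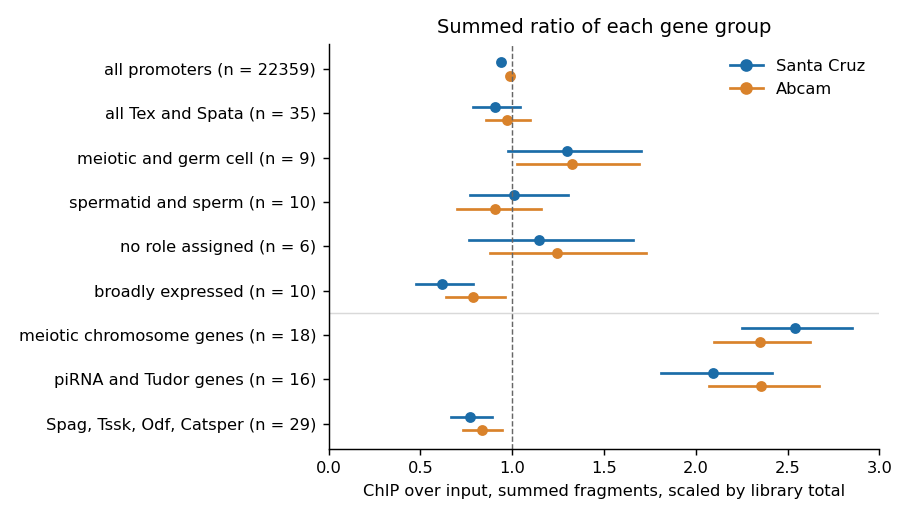
Summed ratio of ChIP to input fragments (horizontal axis, linear from 0) for all promoters, for the members as a whole and by role, and below the grey line for 3 comparison lists; points are the Santa Cruz and Abcam values and bars the 95% counting intervals. The meiotic chromosome and piRNA lists lie above 2, the germ cell members at 1.30 and 1.33, and the broadly expressed members under 0.8.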

How the data were processed

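ChIP-seq with 2 Pcgf6 antibodies (2 replicates each) and 1 input library from CCE ESCs was analysed. The authors deposited, per library, a coverage signal on mm9, the number of reads, each extended to 300 bp, that cover a position. It was not scaled by library size, and no input had been subtracted. The submitters' processing notes name Bowtie 0.1.2.7, and the treatment of duplicate reads is not given in the sources used here. Fragments were recovered from rises and falls of the depth that lie 300 bp apart (tolerance 2 bp). Replicates of an antibody held largely the same fragments shifted by 1 or 15 positions and were joined, with 1 fragment kept per position.

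Fragments centred within 2 kb of the TSS used by most protein-coding transcripts (GENCODE annotation of NCBIM37) were counted, and ratios were scaled by library totals. ChIP was compared with input by a one-sided, and the antibodies with each other by a two-sided, exact binomial test, and p-values were adjusted after Benjamini and Hochberg. Beside the counts of 0 at Tex13 and Tex13a the ratio at 3 fragments is given. Scripts were tested on simulated data. The sequence of 1 further promoter is not reported here. All members may be named; full values were due to members with ratios of 2 or more with both antibodies, to those past the threshold with 1 antibody only (no member met either), to Tex11, Tex13 and Tex19.1, and to the 3 lowest over both antibodies. The members, roles and lists were chosen with earlier results of these data known. Alternatives were other windows, all fragments as deposited, scaling by the median 10 kb window, the most upstream TSS, depth in place of fragments, and each replicate left out. The software was Python 3.11.15 with scipy 1.17.1 for tests, pandas 2.3.3 and numpy 2.4.6 for tables, matplotlib 3.10.9 for plots, and numba 0.67.0.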

Additional observations from a re-analysis of the deposited data

How the results depend on the processing

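No paired analysis was possible because the replicates of each antibody hold largely the same fragments, so that a replicate block would count the same fragments again. The count of members called stayed at 0 with Santa Cruz, with Abcam and with both in windows of 1, 3 and 10 kb, in the added window of 0.5 kb, with the median 10 kb window as scale, with the most upstream TSS, with depth in place of fragments and without any 1 replicate. With all fragments as deposited, which counts most fragments once per replicate and so makes p too small, 1 member (Tex15, ratio 2.96) was called with Santa Cruz and 0 with Abcam, and 1 member (Spata21) differed between antibodies. Over all promoters that setting called 383, 621 and 195 (Santa Cruz, Abcam, both) and 205 between antibodies, and the 10 kb window called 89, 192 and 56. Over these settings the median member ratio lay between 0.772 and 0.937 for Santa Cruz and between 0.911 and 1.05 for Abcam. The summed ratio lay between 0.869 and 0.991, and between 0.907 and 1.04. Of 68 single ratios, 16 left their interval in the 0.5 kb window and 7 in the 1 kb window. The unadjusted p of Spata21 rose to 0.139 in the 10 kb window. With 10 to 144 input fragments at all members but Tex16, a ratio under 1.91 could not be called at any of them.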
